A study of Mus musculus with 56 samples.

Results

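Spleen CD4 T cells of C57BL/6 mice that had been activated for 30 h were compared between cultures started at a high concentration, 1000000 cells per ml, and cultures started at a low one, 62500 cells per ml, a 16-fold difference. All 6 libraries that the labels place in these groups were used, 3 of the high and 3 of the low concentration, out of 38 libraries in the second experiment and 56 in the whole series. The cells of every group were activated with beads carrying antibodies to CD3 and CD28, in complete RPMI medium to which no cytokine was added. They stood in 1 ml of medium in 24-well plates, and CD4 positive cells were sorted for lysis, 10000 to 20000 of them per library. The labels state the concentration of cells but not the number of beads per cell. Nor do they say whether the libraries of a group came from separate mice or wells. The p-values therefore stand for the spread among libraries within groups, which may be technical. That spread was estimated over all 38 libraries of the second experiment. All 6 titles share their second number, which the labels do not explain.

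A naive CD4 T cell that meets its antigen receptor signal together with CD28 costimulation leaves its resting state within hours. It secretes IL-2, takes up glucose and amino acids, builds ribosomes and membranes, copies its DNA and divides. Cells in a shared well also act on each other: they use up nutrients and oxygen, release lactate, and exchange cytokines such as IL-2, the interferons and the TNF family ligands. At 30 h most such cells are close to their first division.

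The 6 libraries held 1407701 to 2733659 counts in high cultures and 1624614 to 2230444 in low cultures. Ribosomal protein genes took 29.1 to 30.3% of the counts in high cultures and 27.6 to 29.4% in low cultures. Values below are CPM, counts scaled by TMM to a library of 1000000, a level that compares libraries and not genes of different length or priming. The 11 genes of T-cell identity summed to 3131 to 3379 CPM in high and 3054 to 3352 CPM in low cultures, and Cd4 itself stood at 393 to 561 CPM in high and 325 to 412 CPM in low cultures. Markers of other cells were sparse. The 17 B-cell markers summed to 57.9 to 135 CPM in high and 98.9 to 113 CPM in low cultures, with Ms4a1, Cd22, Pax5, Ebf1 and Cr2 at 0 in all 6 libraries. Cd72, Cd74 and the class II genes make up most of that sum, and the other 12 markers came to 3.58 to 6.48 CPM in high and 3.60 to 4.97 CPM in low cultures. The 12 markers of CD8 and NK cells summed to 41.1 to 64.6 CPM in high and 30.6 to 37.7 CPM in low cultures, mostly Cd8b1. The 18 myeloid and dendritic markers summed to 185 to 217 CPM in high and 211 to 222 CPM in low cultures, mostly Cst3 and Ctss. Of 13 red-cell and platelet markers 12 were at 0, and the list came to 0.747 to 1.44 CPM in high and 0.886 to 1.66 CPM in low cultures. In these bulk samples fewer cells of a type and less RNA per cell cannot be told apart.

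Of 9239 genes tested, 791 (8.56%) differed between the concentrations at a Benjamini-Hochberg adjusted p under 0.05 in edgeR's quasi-likelihood test. Every adjusted p given here is from that test unless DESeq2 is named. In high cultures 428 genes (4.63%) were higher, with a median log2 difference of 0.854, and 363 (3.93%) were lower, with a median of -1.11. These shares are the ones to set beside each list count below. A log2 difference of 1 was passed by 153 of the higher and 200 of the lower genes. The libraries of the high and low cultures did not overlap in CPM for 773 of the 791, against 2605 (28.2%) of all genes tested. The median over all genes tested was -0.0265. Leaving out any 1 library lowered the number of genes called, with fewer libraries left to test. It was 470 without replicate 3 of the high concentration and 522 without replicate 2 of the low one. The higher genes numbered 284 and 253 when replicate 1 or 3 of the high concentration was left out. The lower genes numbered 229, 217 and 234 when replicate 2 or 3 of the high or replicate 2 of the low concentration was left out.

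**Figure D1:**
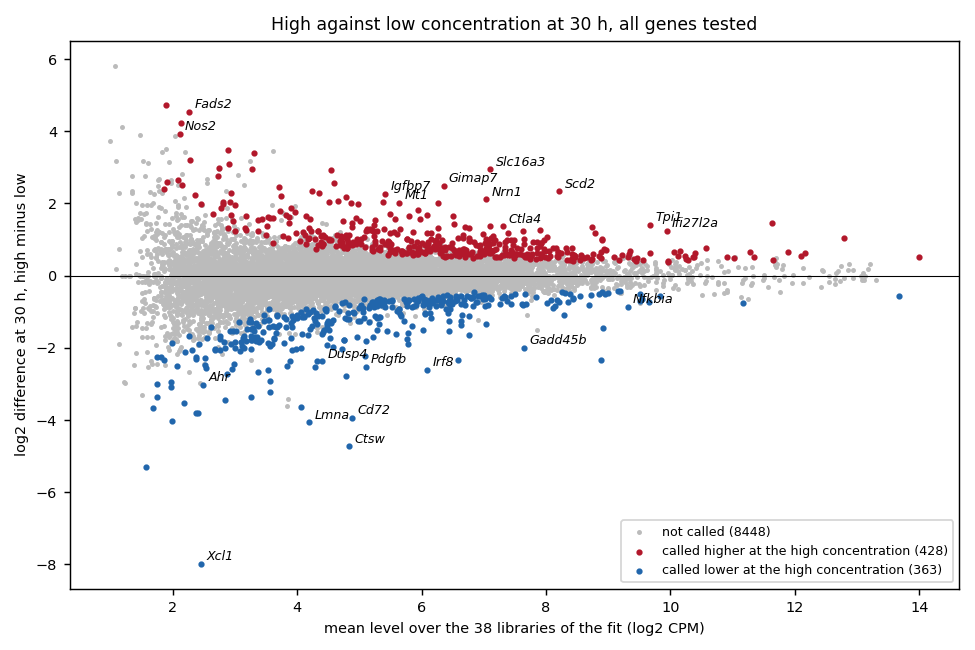
Log2 difference at 30 h (high minus low, vertical axis) against the mean level over the 38 libraries of the fit (log2 CPM, horizontal axis) for all genes tested; red points are the 428 genes called higher and blue points the 363 called lower at the high concentration. Xcl1 had 0 counts in the high libraries, so its fitted position has no set size.

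Among genes at or above the median level, the largest falls were Ctsw, Cd72 and Irf8. Ctsw encodes cathepsin W, a protease known from cytotoxic lymphocytes, and had 2.16, 0.796 and 1.12 CPM in high cultures, against 37.2, 34.8 and 31.5 CPM in low cultures, a log2 difference of -4.73 ± 0.39 (SE, n = 3 libraries each, adjusted p = 3.75e-13). Naive cells held 189 to 215 CPM of Ctsw, so low cultures lay between naive cells and high cultures, with no overlap. The naive libraries carry another second title number than those at 30 h. Differences from naive cells, here and below, were not tested. Cd72, a lectin-type receptor best known as an inhibitory coreceptor of B cells, had 3.60, 6.37 and 2.62 CPM in high cultures and 72.1, 63.0 and 63.4 CPM in low cultures, at -3.93 ± 0.32 (adjusted p = 2.95e-13). Naive cells had 24.9 to 36.1 CPM of Cd72, so its level lay above the naive range in low cultures and below it in high cultures. Irf8, a transcription factor of myeloid and lymphoid cells, had 27.4, 31.4 and 36.2 CPM in high cultures and 196, 188 and 206 CPM in low cultures, at -2.61 ± 0.21 (adjusted p = 1.03e-13). It was at 0 to 3.09 CPM in naive cells, and so stood above them in both kinds of culture. Cd72 and Irf8 are also expressed by B cells. Of the 17 B-cell markers 5 were at 0, and Cd79b had 1.99 to 5.76 CPM in high and 3.00 to 3.31 CPM in low cultures. Whether other cells contributed to these differences was not tested.

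Other genes that stood low in high cultures encode secreted factors, signalling brakes and a structural protein of the nucleus. Xcl1, the chemokine lymphotactin, had 0 counts in all 3 high libraries and 14.4, 21.5 and 22.2 CPM in low cultures, which makes it at least 43.2-fold lower in high cultures if 3 counts are taken as the floor for the group. Lmna, which encodes lamins A and C of the nuclear envelope, had 4.32, 4.77 and 7.47 CPM in high cultures and 129, 76.2 and 85.9 CPM in low cultures, at -4.06 ± 0.32 (adjusted p = 1.03e-13). Pdgfb, a growth factor gene, had 25.2, 21.9 and 22 CPM in high cultures and 201, 93.4 and 105 CPM in low cultures, at -2.53 ± 0.27 (adjusted p = 1.25e-09). For Lmna and Pdgfb the first low replicate was the highest, and every low library lay above every high one. Gadd45b, a stress-induced gene that acts on the p38 kinase pathway, had 158, 170 and 180 CPM in high cultures and 739, 627 and 666 CPM in low cultures, at -2.0 ± 0.14 (adjusted p = 4.75e-15). Dusp4, a phosphatase that shuts off MAP kinases, had 8.64, 11.9 and 16.8 CPM in high cultures and 77.5, 65.7 and 58.9 CPM in low cultures, at -2.38 ± 0.27 (adjusted p = 7.63e-09). It was the 1 lower member of 8 MAP kinase feedback genes, against 3.93% of all genes tested, and the Sprouty gene Spry1 and the phosphatase gene Dusp2 stood at -0.57 ± 0.25 and -0.41 ± 0.15 without passing. Apol9b, an apolipoprotein L gene, had 3 counts in high and 51 in low cultures, a 19.5-fold lower level (exact 95% interval 6.31 to 97.7).

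Rpl39, Uqcrb, 1810022K09Rik, Ptbp3 and Naa50 were also among the 10 largest falls at or above the median level, at -2.34 ± 0.50, -2.33 ± 0.57, -2.24 ± 0.56, -1.89 ± 0.47 and -1.80 ± 0.37. Their levels also ran over 3-fold within another group of the experiment, as did those of Ctsw and Irf8, which were close to 0 there. Rpl39, a ribosomal protein gene, ran from 230 to 1052 CPM within a sorted group at 72 h, and Uqcrb, a subunit gene of respiratory complex III, from 11.2 to 86.8 CPM within a sorted group at 48 h. Within the high cultures at 30 h Uqcrb had 14.4, 76.8 and 21.3 CPM, with replicate 2 above the others, against 216, 212 and 162 CPM in low cultures. Without replicate 1 or 3 of the high concentration the calls of Uqcrb (adjusted p = 0.0562 and 0.0697) and 1810022K09Rik (0.0563 and 0.0785) ended, and that of Ptbp3 ended without replicate 2 (0.057). In the compared groups alone Uqcrb (0.0954) and 1810022K09Rik (0.112) did not pass either, nor did 1810022K09Rik with the replicate block added there (0.0762). The part of this variation between libraries in the 5 differences was not tested. Of the 6121 genes whose libraries differed by less than 3-fold (CPM plus 1) within each of the other 11 groups, 576 were called at 30 h (9.41%).

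Among genes at or above the median level, the largest rises were Slc16a3, Gimap7 and Scd2. Slc16a3 encodes MCT4, which carries lactate out of glycolytic cells, and had 158, 159 and 137 CPM in high cultures, against 21.0, 18.2 and 19.5 CPM in low cultures, a log2 difference of 2.94 ± 0.25 (adjusted p = 1.03e-11). Gimap7, a GTPase gene of resting lymphocytes, had 53.3, 49.3 and 46.3 CPM in high cultures and 10.8, 4.97 and 10.2 CPM in low cultures, at 2.50 ± 0.23 (adjusted p = 1.75e-11). Both groups lay below the 106 to 143 CPM of Gimap7 in naive cells. Nrn1, which encodes neuritin, had 161, 173 and 172 CPM in high cultures and 30.0, 35.4 and 49.6 CPM in low cultures, at 2.12 ± 0.20 (adjusted p = 2.4e-11). Igfbp7, a secreted binding protein of insulin-like growth factors, was higher by 2.26 ± 0.27, the neurogranin gene Nrgn by 2.05 ± 0.32 and Phf11b by 2.02 ± 0.20, with no overlap of libraries in any of them. Mt1, a metal-binding metallothionein gene, had 47.5, 33.8 and 24.3 CPM in high cultures and 3.00, 8.84 and 12.4 CPM in low cultures, at 2.02 ± 0.27 (adjusted p = 6e-07). The class I gene H2-K2, at 2.01 ± 0.37, has near-identical relatives whose reads the counting could have split, so its value is uncertain. Among genes below the median level, Nos2, the inducible nitric oxide synthase gene, had 40 counts in high and 2 in low cultures, 17.4 times as much (exact 95% interval 4.52 to 149). Mgarp, a mitochondrial protein gene, was higher by 1.97 ± 0.48, a call that ended without replicate 2 of the low concentration (1.45, adjusted p = 0.0517).

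**Figure D2:**
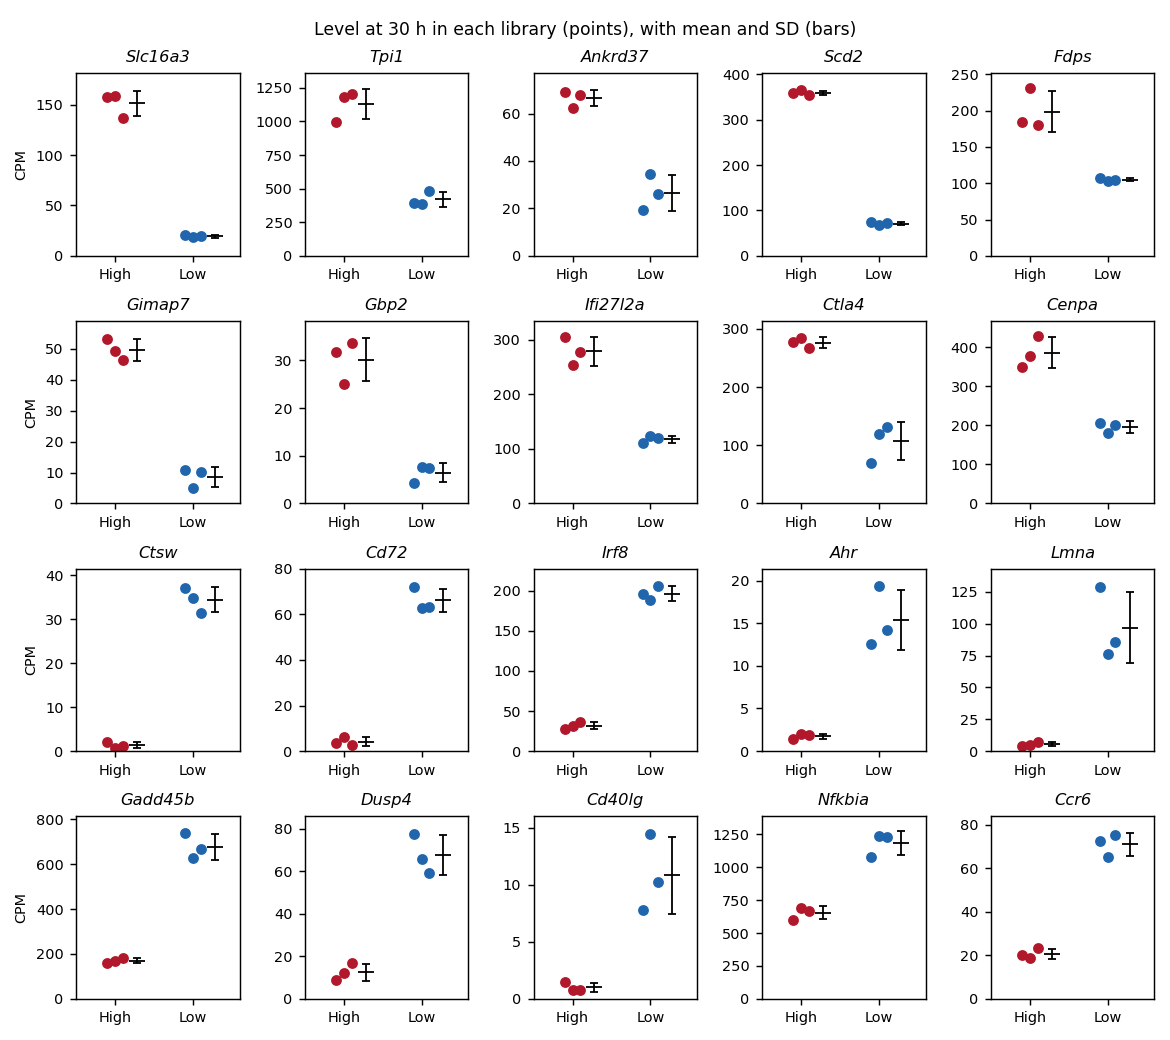
CPM (vertical axes, from 0) of 20 genes in each of the 3 high (red) and 3 low (blue) libraries at 30 h, with the mean and SD as black bars. In each of the 20 panels the high and low libraries do not overlap; Ctsw stood at 0.796 to 2.16 CPM in high and 31.5 to 37.2 CPM in low libraries.

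Cholesterol synthesis genes and some fatty acid desaturase genes stood higher in high cultures. Animal cells read their sterol level through SREBP transcription factors, which bind promoters beside the CCAAT-binding factor NF-Y and switch on cholesterol and unsaturated fatty acid synthesis. The 2 members of the cholesterol list with a single listed start, the smallest p and a CCAAT box are shown with the 300 bases that RefSeq's GRCm38.p6 promoter table gives around the start (250 before, 50 after), read along the gene's strand. Capitals mark CCAAT or its complement ATTGG. Nsdhl, a sterol dehydrogenase gene, lies on the plus strand at chrX:72918271-72918570, and Hmgcs1, of HMG-CoA synthesis, on the plus strand at chr13:119690101-119690400.
Nsdhl: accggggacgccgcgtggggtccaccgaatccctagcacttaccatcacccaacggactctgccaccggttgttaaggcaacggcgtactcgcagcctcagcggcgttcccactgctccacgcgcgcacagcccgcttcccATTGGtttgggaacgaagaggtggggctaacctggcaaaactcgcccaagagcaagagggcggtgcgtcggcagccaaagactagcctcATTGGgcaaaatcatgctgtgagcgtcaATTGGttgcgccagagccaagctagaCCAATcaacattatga
Hmgcs1: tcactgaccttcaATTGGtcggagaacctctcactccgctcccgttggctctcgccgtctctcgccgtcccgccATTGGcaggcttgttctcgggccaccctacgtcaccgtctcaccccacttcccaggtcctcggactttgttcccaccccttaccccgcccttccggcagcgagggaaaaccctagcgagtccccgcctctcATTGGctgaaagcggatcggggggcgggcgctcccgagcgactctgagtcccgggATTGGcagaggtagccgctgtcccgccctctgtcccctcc

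Both windows hold 4 such boxes. CCAAT, searched on both strands in any listed start, was in 16 of 18 cholesterol list promoters, against 43.2% of the 7098 tested genes with a promoter in the table. Among all genes called higher the share was 42.8%, close to that of all genes. List shares, here and below, cover tested members whether called or not, so they describe the lists and not the difference at 30 h. Hmgcs1 had 199, 255 and 197 CPM in high cultures and 128, 129 and 125 CPM in low cultures, at 0.77 ± 0.14 (adjusted p = 0.000191), and Nsdhl had 48.3, 37.4 and 50.4 CPM in high cultures and 13.2, 17.1 and 20.4 CPM in low cultures, at 1.40 ± 0.25 (adjusted p = 0.000103). Fdps, which makes farnesyl diphosphate, had 185, 231 and 180 CPM in high cultures and 107, 103 and 104 CPM in low cultures, at 0.93 ± 0.14 (adjusted p = 1.01e-05). Pmvk, a mevalonate pathway kinase gene, was higher by 0.79 ± 0.18. In all, 12 of 24 cholesterol genes were higher and 0 lower, with a list median of 0.714, against 4.63% of all genes tested called higher and their median of -0.0265. No member was lower at an unadjusted p under 0.05 or in DESeq2, which called 14 higher. Without replicate 3 of the high concentration 5 of them passed.

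The desaturase gene Scd2, which puts the first double bond into saturated fatty acids, had 358, 365 and 355 CPM in high cultures and 73.9, 67.9 and 71.3 CPM in low cultures, at 2.34 ± 0.18 (adjusted p = 1.03e-13). The high libraries lay far above the low ones, and within each group the 3 values were close. The paralog Scd1 was also higher, by 2.99 ± 0.64 at 3.60 to 7.85 CPM in high and 0 to 1.10 CPM in low cultures, and Fads2, a desaturase of polyunsaturated fatty acids, had 38 counts in high and 1 in low cultures, 33.1 times as much (exact 95% interval 5.60 to 1342). Srebf1, the SREBP1 gene, was higher by 0.92 ± 0.22 (adjusted p = 0.00388). Of 15 fatty acid genes 5 were higher and 0 lower at a median of 0.0749, where 4.63% of all genes tested were called higher. The 5 were Scd1, Scd2, Fads2, Srebf1 and Acsl3, an acyl-CoA synthetase gene, whose call ended without replicate 1 or 3 of the high or 1 of the low concentration (adjusted p = 0.0563, 0.0765 and 0.117). Its relative Acsl4 stood at -0.84 ± 0.29 (adjusted p = 0.0609), and it passed as lower in DESeq2, without the low-count filter, with the replicate block and in the compared groups alone. The list members Acly, Acaca and Fasn stood at 0.04, -0.32 and 0.03 without passing.

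Glucose metabolism genes were higher in high cultures in 3 steps: uptake, breakdown and lactate export. The glucose transporter genes Slc2a1 and Slc2a3 were higher by 0.71 ± 0.18 and 0.72 ± 0.20, smaller differences than that of the exporter Slc16a3. Without replicate 3 of the low concentration Slc2a1 and Slc2a3 no longer passed (adjusted p = 0.0512 and 0.0721), which left 1 of the 3 transporter genes called higher, and without replicate 2 Slc2a3 was at 0.05. Slc2a6, another sugar transporter gene, was lower at -1.73 ± 0.53, a call that ended when any 1 of the high libraries (adjusted p = 0.11, 0.0615 and 0.0763) or replicate 1 of the low concentration (0.26) was left out. Bsg, the chaperone of MCT4, stood at -0.13 ± 0.18. Tpi1, triosephosphate isomerase, had 998, 1181 and 1201 CPM in high cultures and 396, 384 and 486 CPM in low cultures, at 1.42 ± 0.17 (adjusted p = 2.9e-08), and Pfkl, a phosphofructokinase gene, was higher by 1.17 ± 0.20. Ldha, which turns pyruvate into lactate, had 3408, 3832 and 3480 CPM in high cultures and 2257, 2675 and 2628 CPM in low cultures, at 0.50 ± 0.12 (adjusted p = 0.00622). Of 16 glycolytic enzyme genes 6 were higher and 0 lower, with a median of 0.482. At an unadjusted p under 0.05 there were 8 higher and 1 lower, and DESeq2 called 6 and 0. Gapdh, which has many pseudogenes, had 9.36, 11.5 and 597 CPM in high cultures and 10.8, 14.4 and 516 CPM in low cultures. Replicate 3 of both groups stood far above the others. The source of that jump was not tested, and the counts of Gapdh are uncertain.

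Genes known to be induced at low oxygen through HIF transcription factors also stood higher. HIF binds elements with the core ACGTG. The 2 members of the hypoxia list with a single listed start, the smallest p and that core are shown in the same way, with ACGTG or its complement CACGT in capitals. Ankrd37, an ankyrin repeat gene, lies on the minus strand at chr8:45999801-46000100, and P4ha2, a collagen prolyl hydroxylase gene, on the plus strand at chr11:54100674-54100973.
Ankrd37: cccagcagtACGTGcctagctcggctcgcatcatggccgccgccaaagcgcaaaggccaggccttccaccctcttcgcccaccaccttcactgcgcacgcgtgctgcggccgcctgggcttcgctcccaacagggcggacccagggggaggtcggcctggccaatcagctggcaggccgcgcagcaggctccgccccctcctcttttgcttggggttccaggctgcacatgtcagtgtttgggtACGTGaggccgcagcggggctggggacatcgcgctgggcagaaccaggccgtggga
P4ha2: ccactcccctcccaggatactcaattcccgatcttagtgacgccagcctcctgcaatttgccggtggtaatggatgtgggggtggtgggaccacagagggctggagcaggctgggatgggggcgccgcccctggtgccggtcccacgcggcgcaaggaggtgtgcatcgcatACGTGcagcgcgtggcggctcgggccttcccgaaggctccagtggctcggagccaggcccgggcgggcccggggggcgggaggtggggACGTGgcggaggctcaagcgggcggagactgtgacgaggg

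Each window holds the core at 2 places. The core, which is also part of the E-box CACGTG, was in 16 of 21 hypoxia list promoters and 11 of 16 of glycolytic enzymes. It was in 30.7% of all tested genes with a promoter. Among genes called higher the share was 26.5% and among those called lower 26.7%, both below that of all genes. Ankrd37 had 69.1, 62.5 and 68.0 CPM in high cultures and 19.2, 34.3 and 26.1 CPM in low cultures, at 1.32 ± 0.21 (adjusted p = 2.42e-05), and P4ha2 was higher by 2.30 ± 0.45. Ak4, a mitochondrial adenylate kinase gene, had 23, 21.9 and 22 CPM in high cultures and 3.00, 8.29 and 3.10 CPM in low cultures, at 2.21 ± 0.33 (adjusted p = 5.07e-06). The mitophagy receptor gene Bnip3 was higher by 1.81 ± 0.36. Ndrg1, a stress-induced gene, had 23, 23.1 and 23.2 CPM in high cultures and 11.4, 9.39 and 12.4 CPM in low cultures, and was higher by 1.05 ± 0.23 (adjusted p = 0.0023). Of 24 hypoxia genes 7 were higher and 0 lower, with a median of 0.513. At an unadjusted p under 0.05 there were 12 higher and 0 lower, and DESeq2 called 8 and 0. Egln3, an oxygen-sensing hydroxylase gene, stood at 0.54 ± 0.25 and did not pass (adjusted p = 0.188).

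Mitochondrial and biosynthetic lists differed among themselves in how many members passed. In edgeR's test none of 23 genes of the tricarboxylic acid cycle, 19 of tRNA synthetases, 17 of purine and pyrimidine synthesis and 17 secretory pathway chaperones passed, at medians of 0.105, -0.101, -0.114 and -0.0956, nor did any in DESeq2. At an unadjusted p under 0.05 there were 1, 2, 1 and 2 members in those lists. Of 33 respiratory chain and ATP synthase genes 5 were higher and 0 lower at a median of 0.072, where 4.63% of all genes tested were called higher. There were 8 higher and 2 lower at an unadjusted p under 0.05, and DESeq2 called 6 and 0. Uqcrb is not on that list. The 5 include the ATP synthase subunit gene Atp5g3, at 0.77 ± 0.15, and Ndufb8 of complex I, at 0.53 ± 0.13. Ribosome biogenesis, which builds the translation machinery in the nucleolus, had 6 of 35 members lower and 0 higher, at a median of -0.256, where 3.93% of all genes tested were called lower. There were 11 lower and 0 higher at an unadjusted p under 0.05, and DESeq2 called 8 and 0. Its member Gnl3, nucleostemin, had 279, 348 and 305 CPM in high cultures and 500, 562 and 517 CPM in low cultures, at -0.76 ± 0.16 (adjusted p = 0.000874). The count fell to 1 without replicate 1 of the low concentration and to 3 without replicate 3 of the high concentration, so Gnl3 is the member given in full. Myc, the growth regulator whose targets include these genes, had 195, 225 and 211 CPM in high cultures and 156, 144 and 182 CPM in low cultures, at 0.39 ± 0.21 without passing (adjusted p = 0.271).

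Interferon-induced genes and class I presentation genes stood higher in high cultures. Interferons signal through STAT and IRF factors to promoters with ISRE elements, and induce GTPases, antiviral proteins and the immunoproteasome. The promoters of Gbp2 and Igtp, interferon-induced GTPase genes chosen by the same rule, are shown with an ISRE-like pattern in capitals: TTTC, any 2 bases and TTTC again, or the complement with GAAA in both places. Gbp2 lies on the plus strand at chr3:142620413-142620712 and Igtp on the plus strand at chr11:58199306-58199605.
Gbp2: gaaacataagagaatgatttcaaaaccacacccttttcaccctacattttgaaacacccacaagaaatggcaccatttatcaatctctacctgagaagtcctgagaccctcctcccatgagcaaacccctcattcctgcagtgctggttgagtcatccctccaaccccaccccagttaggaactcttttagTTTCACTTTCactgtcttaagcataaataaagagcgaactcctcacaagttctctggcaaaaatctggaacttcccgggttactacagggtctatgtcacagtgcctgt
Igtp: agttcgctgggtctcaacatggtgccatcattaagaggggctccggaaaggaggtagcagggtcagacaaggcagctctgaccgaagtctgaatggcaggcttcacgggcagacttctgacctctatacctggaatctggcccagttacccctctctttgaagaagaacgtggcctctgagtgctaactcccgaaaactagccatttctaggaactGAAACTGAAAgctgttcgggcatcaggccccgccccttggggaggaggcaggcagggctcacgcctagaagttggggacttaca

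Each of the 2 windows holds the pattern once. It was in 7 of 8 GTPase list promoters and 9 of 18 of the type I interferon list, against 3.8% of all tested genes with a promoter and 8.63% of those called higher. Gbp2 had 31.7, 25.1 and 33.6 CPM in high cultures and 4.20, 7.73 and 7.53 CPM in low cultures, at 2.18 ± 0.32 (adjusted p = 4.1e-06). Igtp had 146, 155 and 167 CPM in high cultures and 75.1, 88.9 and 74.9 CPM in low cultures, at 0.97 ± 0.15 (adjusted p = 5.13e-06). Of 13 GTPase genes 4 were higher and 0 lower, at a median of 0.933, and 2 passed without replicate 2 or 3 of the high concentration or replicate 1 or 2 of the low one. Ifi27l2a, a mitochondrial interferon-induced gene, had 306, 253 and 278 CPM in high cultures and 110, 123 and 120 CPM in low cultures, at 1.24 ± 0.14 (adjusted p = 4.58e-09), both far below the 1866 to 2340 CPM of naive cells. The nucleic acid sensor gene Zbp1 was higher by 1.64 ± 0.27 and the exonuclease gene Isg20 by 1.30 ± 0.25. Of 28 type I interferon genes 5 were higher and 0 lower, at a median of 0.282, and 3 passed without replicate 2 or 3 of the high concentration, without replicate 1 or 3 of the low one, and in the compared groups alone with the replicate block.

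The immunoproteasome subunit gene Psmb8 had 912, 999 and 882 CPM in high cultures and 615, 593 and 567 CPM in low cultures, at 0.65 ± 0.12 (adjusted p = 0.000129), and Psmb9 and Psmb10 were higher by 0.82 ± 0.17 and 0.56 ± 0.15. In the interferon GTPase, type I interferon and class I lists 0 members were lower at an unadjusted p under 0.05 or in DESeq2. Of 20 class I presentation genes 7 were higher and 0 lower, at a median of 0.423, and 4 passed without replicate 3 of the high or replicate 2 of the low concentration. Among the interferon regulatory factors, Irf1 had 61.2, 58.9 and 50.1 CPM in high cultures and 31.8, 16.0 and 10.2 CPM in low cultures, at 1.58 ± 0.23 (adjusted p = 2.73e-06), and Irf2 was higher by 1.23 ± 0.25. Irf8 and Irf4 of the same family were lower, Irf4 at 375, 363 and 357 CPM in high cultures and 621, 554 and 638 CPM in low cultures, or -0.73 ± 0.14 (adjusted p = 0.000426). Class II genes, which mouse T cells mostly lack, were low and uneven. H2-Ab1 had 25.2, 27.4 and 6.35 CPM in high cultures and 3.00, 2.21 and 2.22 CPM in low cultures, at 2.93 ± 0.59 (adjusted p = 0.00137), with replicate 3 of the high concentration near the low cultures. Whether class II RNA came from other cells was not tested.

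**Figure D3:**
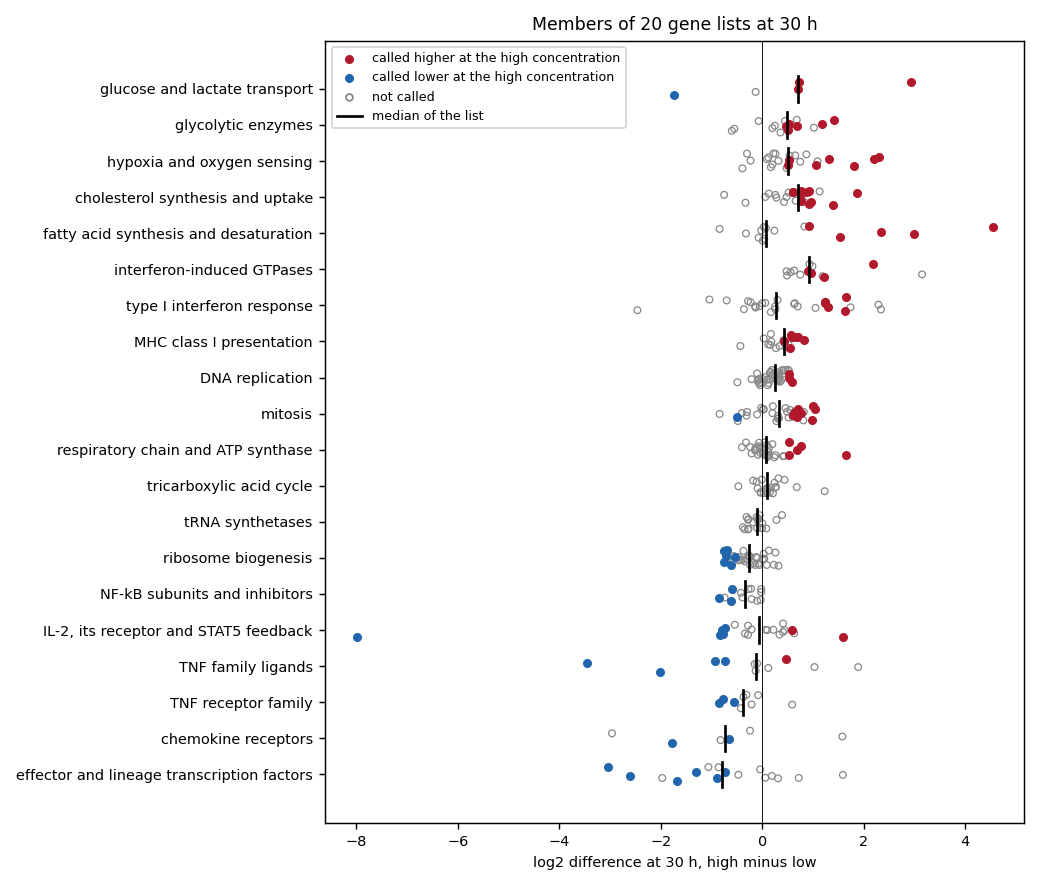
Log2 difference at 30 h (high minus low, horizontal axis) of the members of 20 gene lists; red points are members called higher and blue points members called lower at the high concentration, open points did not pass, and black bars are list medians. The cholesterol list has 12 of 24 members called higher and its median at 0.714; the effector factor list has 6 of 16 called lower and its median at -0.792, or -0.036 over steady genes only. The point at -7.98 is Xcl1, which had 0 counts in the high libraries.

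Some transcription factor genes of effector cells were lower in high cultures. Of 16 effector and lineage factor genes 6 were lower and 0 higher, at a median of -0.792, against 9 and 2 at an unadjusted p under 0.05 and 6 and 0 in DESeq2. Beside Irf8 and Irf4 these included Ahr, Ikzf4 and Zbtb32. Ahr, a ligand-activated factor of Th17 and other helper cells, had 1.44, 1.99 and 1.87 CPM in high cultures and 12.6, 19.3 and 14.2 CPM in low cultures, at -3.03 ± 0.53 (adjusted p = 0.000101). The zinc finger genes Ikzf4 and Zbtb32 stood at -1.31 ± 0.29 and -0.90 ± 0.22. Restricting the list to genes steady within the other groups, as above, gave a median of -0.036. Gata3, the Th2 factor, stood at 0.31 ± 0.22 and Tcf7, a factor of naive and memory cells, at 0.20 ± 0.20, neither past the test.

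Receptor-induced factors differed in both directions, and 3 NF-kB genes were lower in high cultures. Nab2, a corepressor of Egr proteins, and Batf, an AP-1 factor, were higher by 1.20 ± 0.21 and 0.88 ± 0.16, and Nr4a3, an orphan nuclear receptor gene, and Fosl1, an AP-1 gene, were lower at -1.19 ± 0.23 and -2.30 ± 0.49. Nfkbia, which encodes the inhibitor that NF-kB itself induces, had 599, 692 and 669 CPM in high cultures and 1078, 1241 and 1233 CPM in low cultures, at -0.86 ± 0.12 (adjusted p = 8.22e-07). It was 1 of 3 lower members among 14 NF-kB genes (0 higher, median -0.333), and 1 member passed when any 1 of the high libraries was left out. At an unadjusted p under 0.05 there were 7 lower and 0 higher, and DESeq2 called 3 and 0. Of the receptor complex, Cd3g was higher by 1.18 ± 0.18, while Cd5, a surface receptor that dampens receptor signals, had 251, 282 and 295 CPM in high cultures and 558, 455 and 441 CPM in low cultures, at -0.81 ± 0.14 (adjusted p = 0.000121). The activation markers Cd69 and Cd44 stood at -0.52 ± 0.19 and -0.61 ± 0.30 without passing.

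Il2, the main growth factor of these cells, did not differ past the test: it had 145, 137 and 176 CPM in high cultures and 120, 225 and 212 CPM in low cultures, which overlap, at -0.28 ± 0.22 (adjusted p = 0.485). Its receptor gene Il2ra had 83.5, 84.3 and 75.1 CPM in high cultures and 121, 151 and 145 CPM in low cultures, at -0.78 ± 0.20 (adjusted p = 0.0089), a call that ended without replicate 3 of the high (adjusted p = 0.0551) or 2 of the low concentration (0.0526). Pim1, a kinase gene downstream of STAT5, was lower at -0.83 ± 0.20 and its relative Pim2 higher by 0.59 ± 0.15. The receptor gene Il4ra, which IL-4 and IL-13 signal through, had 15.8, 18.7 and 14.9 CPM in high cultures and 6.01, 3.87 and 6.20 CPM in low cultures, at 1.6 ± 0.30 (adjusted p = 0.000221). In the IL-2 and STAT5 list 2 of 20 members were higher and 5 lower, where 4.63% and 3.93% of all genes tested were. Tgfbr1, a TGF-beta receptor gene, was lower at -1.35 ± 0.25. Il6ra, the IL-6 receptor gene, stood at -0.73 ± 0.23 with an adjusted p of 0.0312, and did not pass when any 1 of 5 libraries (all but replicate 1 of the high concentration) was left out.

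In the TNF family 4 ligand and 3 receptor genes were lower in high cultures, and ligand genes lay on both sides. Cd40lg, with which helper cells license B and dendritic cells, had 1.44, 0.796 and 0.747 CPM in high cultures and 7.81, 14.4 and 10.2 CPM in low cultures, at -3.45 ± 0.64 (adjusted p = 0.000229). Tnf had 45.4, 59.7 and 61.7 CPM in high cultures and 96.7, 113 and 111 CPM in low cultures, at -0.93 ± 0.20 (adjusted p = 0.00119), and lymphotoxin alpha, Lta, was lower at -0.73 ± 0.14. Of 11 ligand genes 4 were lower and 1, Ltb, was higher by 0.47 ± 0.15 (adjusted p = 0.0478). Over all genes tested 3.93% were called lower and 4.63% higher. At an unadjusted p under 0.05 there were 4 lower and 3 higher ligand genes, and Tnfsf9, the 4-1BB ligand gene, stood at 1.03 ± 0.37 (adjusted p = 0.0709). The call of Ltb ended with the replicate block and without 5 of the 6 libraries, all but replicate 1 of the low concentration. The lower ligand count was 3 without replicate 1 or 2 of the high or replicate 2 or 3 of the low concentration. Of 9 receptor genes 3 were lower and 0 higher, among them Tnfrsf25, the DR3 gene, at -0.78 ± 0.18. At an unadjusted p under 0.05 there were 4 lower and 1 higher receptor genes, and DESeq2 called 3 and 0. The lower receptor count was 2 when any 1 library but replicate 2 of the low concentration was left out.

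Surface receptors of migration and inhibition gave calls in both directions. Ccr6, a chemokine receptor gene of Th17 cells, had 20.2, 18.7 and 23.2 CPM in high cultures and 72.7, 65.2 and 75.3 CPM in low cultures, at -1.77 ± 0.22 (adjusted p = 7.59e-08). Ccr7, which guides cells into lymph nodes, was lower too, at 529, 582 and 609 CPM in high cultures and 1035, 848 and 839 CPM in low cultures, or -0.66 ± 0.12 (adjusted p = 0.000194). The integrin gene Itgb1 was higher by 1.10 ± 0.19. Among coinhibitory receptor genes, Ctla4, which competes with CD28 for its ligands, had 277, 285 and 267 CPM in high cultures and 69.7, 120 and 131 CPM in low cultures, at 1.36 ± 0.20 (adjusted p = 6.1e-06). Nt5e, the ecto-enzyme CD73, was lower at -1.98 ± 0.38, and Pdcd1, PD-1, stood at -0.37 ± 0.20 without passing. Izumo1r, a folate receptor gene of regulatory and resting T cells, had 211, 233 and 220 CPM in high cultures and 68.5, 81.8 and 109 CPM in low cultures, at 1.35 ± 0.14 (adjusted p = 1.16e-09). Lgals3, galectin-3, had 1.44, 3.18 and 0.374 CPM in high cultures and 15.0, 7.73 and 13.3 CPM in low cultures, at -2.79 ± 0.50 (adjusted p = 0.000135).

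Amino acid response and p53 target genes gave less even counts. Over all genes tested 4.63% were called higher and 3.93% lower. Of 22 genes driven by ATF4, the factor of amino acid shortage, 4 were higher and 1 lower, at a median of 0.337. The higher count was 1 without replicate 1 or 3 of the high concentration, 2 without replicate 2 of the high or of the low one, and 0 without replicate 1 of the low concentration. Its call with the smallest p was Psph, of serine synthesis, at 0.57 ± 0.16, a call that ended without replicate 3 of the high (adjusted p = 0.0691) or 1 of the low concentration (0.0936). Of 18 genes on the p53 target list 2 were higher and 4 lower, at a median of -0.312. The higher count was 0 or 1 when any 1 of the 6 libraries was left out, and the lower count was 2 without replicate 3 of the high or 1 of the low concentration. Gadd45b, given above, and Cdkn1a are the members with the smallest p. Gadd45a, also on the list, stood at 0.36 without passing. Themis, a signalling adaptor gene of developing T cells, was higher by 0.85 ± 0.21, and Eif3c, a translation initiation factor gene, was lower at -0.51 ± 0.12.

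Some genes of the second part of the cell cycle were higher in high cultures, with smaller list medians than at 18 h. At 18 h the medians were 1.1 for mitosis and 0.821 for DNA replication, in libraries that carry another second title number. Cenpa, the centromeric histone gene, had 351, 378 and 429 CPM in high cultures and 207, 180 and 201 CPM in low cultures, at 0.98 ± 0.15 (adjusted p = 9.08e-06). Birc5, survivin, and Cdc20, an activator of the anaphase-promoting complex, were higher by 0.77 ± 0.14 and 1.04 ± 0.20. Of 33 mitosis genes 8 were higher, at a median of 0.333, and without replicate 3 of the high concentration 5 were. Top2a, a topoisomerase gene, was the 1 lower member, at -0.49 ± 0.16 (adjusted p = 0.0415), and it did not pass when any 1 of the 6 libraries was left out, with RLE size factors, with scaling without ribosomal protein genes, without the low-count filter or in DESeq2 (adjusted p = 0.0565 to 0.175, 0.0577, 0.0572, 0.0683 and 0.067). Of 40 DNA replication genes 3 were higher and 0 lower, at a median of 0.251, where 4.63% of all genes tested were called higher. There were 12 higher and 1 lower at an unadjusted p under 0.05, and DESeq2 called 4 and 0. The count of 3 became 8 without replicate 1 of the low concentration and 5 with no low-count filter. It fell to 1 without replicate 1 of the high or 2 of the low concentration. Cdkn1a, the cell-cycle inhibitor p21, had 82.8, 80.8 and 91.6 CPM in high cultures and 186, 214 and 205 CPM in low cultures, at -1.24 ± 0.18 (adjusted p = 3.37e-06), and Ccnd2, a G1 cyclin gene, was lower at -0.52 ± 0.13. Bcl2l11, which encodes the death-promoting protein Bim, was higher by 1.34 ± 0.29 (adjusted p = 0.0014). It was the 1 of 13 Bcl2 family genes to pass, where 8.56% of all genes tested did, so the list does not stand out. Without replicate 2 of the high concentration 2 of them passed.

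The difference at 30 h was then set against those at 18 and 48 h, with the change itself tested. At 18 h 173 genes (1.87%) differed, 106 (1.15%) of them higher and 67 (0.725%) lower in high cultures, and at 48 h 2397 (25.9%), 1286 (13.9%) of them higher and 1111 (12.0%) lower. The libraries held 587118 to 1424921 counts at 18 h and 1182242 to 2481924 at 48 h. Depth therefore differs between times, and the numbers called cannot be compared directly. Between 18 and 30 h the high minus low difference changed for 83 genes (0.898%), upward for 35 (0.379%) and downward for 48 (0.52%), and 52 of the 83 were called at 30 h. The test of 30 h against 18 h and the one at 30 h share the 30 h libraries. All libraries at 18 h also carry another second title number than those at 30 h, so time and what that number marks cannot be told apart. The count was 43 and 38 without replicates 1 and 3 of the high concentration at 18 h, and 42, 53 and 50 without replicates 1, 2 and 3 of the low concentration at 18 h. Scd2 and Slc16a3 did not differ past the test at 18 h, with differences of 0.07 ± 0.24 and 0.01 ± 0.42, and changed by 2.27 ± 0.31 and 2.94 ± 0.51 by 30 h (adjusted p = 4.15e-06 and 0.000963). Gimap7 and Ifi27l2a likewise changed by 2.49 ± 0.38 and 1.57 ± 0.20, from 0.00 and -0.32 at 18 h (adjusted p = 5.77e-05 and 2.5e-06). Lmna changed by -3.29 ± 0.61 (adjusted p = 0.00202): at 18 h it had 3.66 to 8.38 CPM in high and 4.38 to 15.8 CPM in low cultures. Cd96, a receptor of the nectin family, changed by -1.90 ± 0.32 and Top2a by -1.99 ± 0.26 (adjusted p = 0.000369 and 2.5e-06), Top2a having been higher in high cultures at 18 h by 1.5 ± 0.21. The median change was -0.823 in the mitosis list and -0.674 in the DNA replication list. In these lists 1 of 33 and 5 of 40 members changed downward past the test, and 0 upward. Ctsw, Cd72 and Irf8 were low in high cultures already at 18 h, by -4.98 ± 0.43, -3.54 ± 0.31 and -2.18 ± 0.23, and their change did not pass (adjusted p = 0.949, 0.789 and 0.594).

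Between 30 and 48 h the difference changed for 1195 genes (12.9%), upward for 575 (6.22%) and downward for 620 (6.71%), and 267 of the 1195 were called at 30 h. At 48 h 2 of the 3 low libraries carry another second title number than the rest, and with the other one, replicate 1, as the only low library 708 genes changed, 274 upward and 434 downward. The hypoxia genes Egln3 and Ndrg1 changed by 4.04 ± 0.35 and 3.47 ± 0.32 (adjusted p = 6.67e-12 and 2.51e-11), and the glucose transporter gene Slc2a3 by 3.09 ± 0.28. In the hypoxia list 10 of 24 members changed upward and in the ribosome biogenesis list 13 of 35 downward. Ccl4, a chemokine gene that did not differ past the test at 30 h (-0.04 ± 0.18), changed by -3.67 ± 0.32, and Il2 by -2.26 ± 0.36 (adjusted p = 6.67e-12 and 2.31e-05). Nrn1 is among the genes whose difference shrank after 30 h, changing by -1.85 ± 0.27 (adjusted p = 3.3e-06): it had 112 to 177 CPM in high and 107 to 139 CPM in low cultures at 48 h. For Scd2, Slc16a3 and Gimap7 the change after 30 h did not pass, at 0.18 ± 0.25, 0.64 ± 0.35 and 0.28 ± 0.33.

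**Figure D4:**
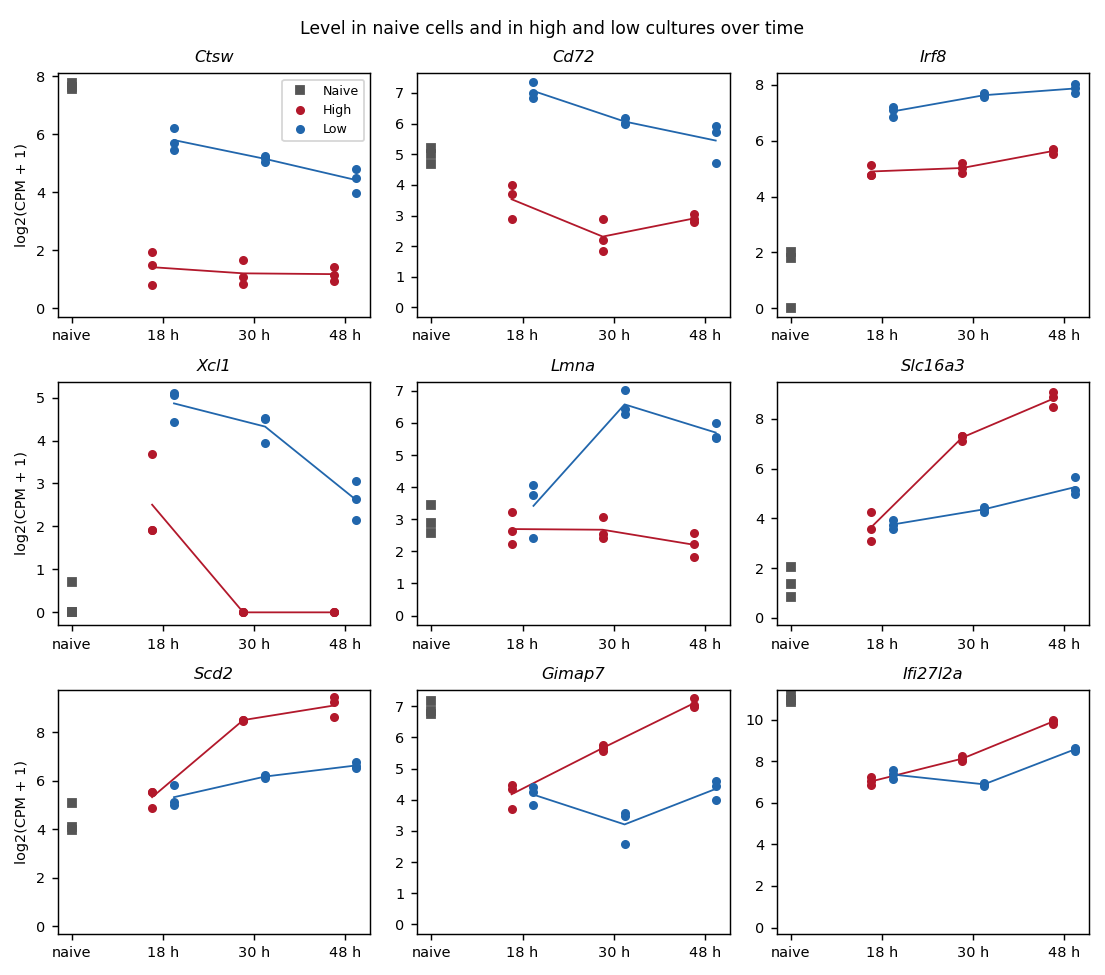
Level as log2(CPM + 1) (vertical axes) in naive cells (grey) and at 18, 30 and 48 h in high (red) and low (blue) cultures, with each library as a point and lines through the group means. Ctsw, Cd72 and Irf8 are apart from 18 h on, while Lmna, Slc16a3, Scd2 and Gimap7 separate between 18 and 30 h; Xcl1 is at 0 in the high libraries at 30 and 48 h.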

How the data were processed

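Gene expression was measured by 3′ end RNA sequencing with molecular identifiers in poly-T primers and linear amplification, per the labels. Per the submitters' processing notes, the tools included STAR 2.5.2b, HTSeq 0.9.1, HISAT 0.1.5, bcl2fastq 2.17.1.14 and FastQC 0.11.7, with no role or order given, with the mouse build mm9. The sources used here do not say which aligner made the table, whether identifiers were collapsed, or which annotation and strand setting were used. Antisense and overlapping genes may therefore share reads. The authors deposited raw counts, 1 row per gene symbol and 1 column per library, with no scaling. Every count column was matched to 1 sample by its title. Where identifiers were not collapsed, amplification would add to the spread between libraries.

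The 38 libraries of the second experiment (24421 symbols) entered 1 model in edgeR 4.0.16 (R 4.3.3), with a coefficient for each of 13 groups, TMM scaling, filterByExpr (minimum count 10) and the robust quasi-likelihood test (25 residual degrees of freedom, common dispersion 0.0268). Standard errors (SE) were taken as the absolute log2 difference divided by the root of F. Adjusted p-values (Benjamini-Hochberg) cover all 9239 genes tested. Library pairs of a group differed by 5.92 to 6.71 times the counting variance (chi-square per degree of freedom), and replicates 2 and 3 of the low concentration by 2.31 times. All exceed counting noise, so each library was counted as 1 replicate; whether libraries share a source is not shown by this. Counting intervals (exact, from counts) cover counting error only. On simulated counts for high against low at 30 h (9128 genes) the fit recovered 20.9%, 70.1% and 90.9% of genes changed 1.5-, 2- and 4-fold. These were 67, 67 and 66 genes with a mean fitted count of at least 10, so the rates do not cover genes at lower counts. Fewer genes were changed than were called in the data.

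Named genes are the 10 largest rises and falls among called genes at or above the median level (log2 CPM of 4.82) and the 4 below it whose libraries do not overlap, the members of each list with the smallest p (at most 6), 18 fixed T-cell genes, and the 6 smallest adjusted p of each change between times. The text uses those the results turn on and leaves out most whose call an alternative ended, a choice made after the values were seen. Gapdh, H2-Ab1 and Cd4 as uncertain or marker genes, and Acly, Acaca and Fasn, were named after their values were seen. Members and the 53 lists were chosen with earlier results of these data known. Promoters are from RefSeq (GRCm38.p6), another build than the counts, and serve as sequences only. Alternatives were other size factors (RLE), scaling without ribosomal protein genes, no filter, DESeq2 1.42.0, a replicate block, the compared groups alone and leaving out each library. The first experiment was not used here. Results for a few genes are not reported here.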

Additional observations from a re-analysis of the deposited data

Results flagged for a closer look

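The difference between high and low cultures at 30 h was set against those at 18 and 48 h, and the genes below are among those named above or by the rule for changes between times whose change passed the test at an adjusted p under 0.05 (edgeR's quasi-likelihood test, log2 scale, a positive value meaning that the high minus low difference moved upward).

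Between 18 and 30 h the difference moved upward for Slc16a3 (2.94), Gimap7 (2.49), Scd2 (2.27), Ifi27l2a (1.57), Nrn1 (1.55) and Ltb (1.33). It moved downward for the chemokine gene Xcl1 (-5.75), Lmna (-3.29), Naa50 (-2.16), Top2a (-1.99), Cd96 (-1.9), Rpph1, the RNA of RNase P (-1.25), and Gadd45b (-1.04). Xcl1 had 0 counts in high libraries at 30 h, so its value has no set size, and its call ended without replicate 2 of the high concentration at 18 h (adjusted p = 0.105) or replicate 3 at 30 h (0.061). The call of Naa50 ended with the replicate block and when any of 10 libraries was left out (adjusted p = 0.0541 to 0.163), and that of Rpph1 without replicate 1 of the low concentration at 18 h (0.0557).

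Between 30 and 48 h it moved upward for Egln3 (4.04), Zfp874a (3.61), Ndrg1 (3.47), Rpl39 (3.32), Anxa2 (3.15), Mt1 (3.09), Slc2a3 (3.09), Mgarp (3.06), 1810022K09Rik (2.76), Ptbp3 (2.27), Naa50 (1.96), Il6ra (1.77), Klf2 (1.53), Il2ra (1.39), Top2a (0.88) and Ltb (0.72). It moved downward for Rpph1 (-4.19), Ccl4 (-3.67), Nrgn (-3.59), Il2 (-2.26), Igfbp7 (-2.2) and Nrn1 (-1.85). With replicate 1 as the only low library at 48 h the calls of 1810022K09Rik, Naa50 and Ltb ended (adjusted p = 0.165, 0.0575 and 0.281). Leaving out 1 library ended those of 1810022K09Rik (replicate 3 of the high concentration at 30 h or of the low one at 48 h, 0.069 and 0.0518), Mgarp (replicate 3 of the low concentration at 30 h, 0.0856), Zfp874a (replicate 2 of the high concentration at 30 h, 0.0515), Naa50 (replicate 3 of the high concentration at 48 h, 0.0609) and Ptbp3 (replicate 2 of the high concentration at 30 h or 3 at 48 h, 0.0535 and 0.135). For Ltb 4 single libraries did so, replicate 1 of the low concentration at 30 h, replicate 1 of the high one at 48 h and replicates 2 and 3 of the low one at 48 h (0.0522 to 0.146), as did the compared groups alone (0.0666).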

How the results depend on the processing

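The 791 genes called at 30 h became 729 to 921 under RLE size factors, scaling without ribosomal protein genes, no low-count filter, DESeq2, the replicate block and the compared groups alone, and leaving out 1 library gave 470 to 594 (253 to 339 higher, 217 to 267 lower). Among genes steady within every other group 231 were lower. Of 317 named genes 173 were called; 91 kept their call under every alternative, 56 lost it only when a library was left out, and 0 were called with the opposite sign. For the change between 18 and 30 h, 189 genes (78 up, 111 down) passed with no low-count filter, 140 (77 up) in DESeq2, 266 (102 up, 164 down) in the compared groups alone and 240 (93 up, 147 down) with the replicate block added there, while leaving out 1 library gave 38 to 99 (15 to 45 up, 20 to 54 down). Between 30 and 48 h replicate 1 as the only low library gave 708 (274 up), with that library taken to vary like the other groups, a setting chosen after seeing the data, as was the restriction to steady genes. Leaving out 1 library gave 872 to 1178 (394 to 541 up, 448 to 662 down).

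Replicate numbers are shared by the groups, but same-numbered libraries at 30 h had correlations of deviations of -0.0358, -0.109 and 0.106, too low to take the number as a pairing, although Gapdh was high in replicate 3 of both groups; with that number as a replicate block 773 genes were called, and 83 and 1165 in the tests against 18 and 48 h. On simulated counts 20.9% of 1.5-fold changes were recovered at this depth, so a gene that did not pass may still differ by that much. Genes at low counts were not among those changed in the simulation.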
